A study of Mus musculus with 18 samples.

Results

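The genes described are 9 interferon-induced genes of mouse liver: the guanylate-binding proteins Gbp2, Gbp3 and Gbp6, the immunity-related GTPases Igtp, Irgm1 and Ifi47, the chemokines Cxcl9 and Cxcl10, and the transcription factor gene Irf1. They were chosen by name, with earlier results of these data known, and are 9 of 12169 genes tested. A gene was read from the probe sets that the platform annotation assigns to it alone, and the probe set with the highest mean over the 18 arrays stood for it. The 9 genes had 12 such probe sets of 45101 on the array, and all 9 passed the filter on dim values. Gbp2 and Gbp3 lie on chromosome 3, Gbp6, Cxcl9 and Cxcl10 on chromosome 5, and Igtp, Irgm1, Ifi47 and Irf1 on chromosome 11 (RefSeq, GRCm38.p6).

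Livers came from female B6C3F1 mice that were 5 weeks old at the start, were exposed for 13 weeks and were 18 weeks old at sampling, with 3 mice and 1 array per mouse in each of 6 groups. Mice received 1,5-naphthalenediamine at 2000 ppm in feed, 2,3-benzofuran at 240 mg/kg by gavage in corn oil, N-(1-naphthyl)ethylenediamine dihydrochloride (below without the salt) at 2000 ppm in feed, or pentachloronitrobenzene at 8187 ppm in feed. The controls received corn oil by gavage at 5 ml/kg or rodent chow, and are called corn oil and feed controls. Feed was given 7 days and gavage 5 days a week, each chemical had a single dose, and the study classed the first 2 chemicals as positive and the other 2 as negative for liver cancer.

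Interferon gamma, made mainly by T and NK cells, acts through the kinases Jak1 and Jak2 and on DNA elements called GAS. Type I interferons act through a complex that holds Irf9 and binds elements called ISRE, and Irf1 can bind ISRE-like elements too. Guanylate-binding proteins and immunity-related GTPases act inside cells against intracellular pathogens, while Cxcl9 and Cxcl10 are secreted ligands of the receptor CXCR3 and attract T and NK cells. In liver these genes can be active in hepatocytes, Kupffer cells and sinusoidal endothelium.

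Promoter sequence is shown for the members that hold an interferon-type element near their start, because the interferon-activated factors bind such elements and the GTPases among these members rose together in one group (below). RefSeq windows of GRCm38.p6, from 250 bases before to 50 bases after the annotated start, were found for 8 members in 10 windows, and Gbp6 is named only. The letters GAAANNGAAA, an ISRE-like pattern searched on both strands with overlapping matches kept, occurred for 5 of these 8 members, against 3.99% of all 27025 genes with a window. The letters TTCNNNGAA, a GAS-like pattern that reads the same on both strands, occurred for 2 of the 8, against 9.55% of all genes. Capitals mark the matches, and each stretch is written 5′ to 3′ on the strand of the gene.
Gbp2 (chr3:142620584-142620633, plus strand): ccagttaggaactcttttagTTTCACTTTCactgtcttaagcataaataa
Gbp3 (chr3:142559979-142560034, plus strand): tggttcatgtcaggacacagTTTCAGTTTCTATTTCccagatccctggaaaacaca
Igtp (chr11:58199491-58199551, plus strand): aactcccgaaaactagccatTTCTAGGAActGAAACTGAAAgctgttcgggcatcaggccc
Irgm1 (chr11:48871415-48871470, minus strand): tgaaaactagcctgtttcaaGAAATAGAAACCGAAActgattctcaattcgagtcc
Cxcl10 (chr5:92349073-92349122, minus strand): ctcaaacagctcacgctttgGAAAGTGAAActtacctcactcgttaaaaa
Irf1 (chr11:53769904-53769952, plus strand): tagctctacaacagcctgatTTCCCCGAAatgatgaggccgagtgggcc
In Gbp2 and Gbp3 the ISRE-like match lay on the strand opposite to the gene, and in Igtp, Irgm1 and Cxcl10 on the gene's own strand. Gbp3 and Irgm1 each had a pair of overlapping matches, the first starting 45 and 30 bases before the annotated start. Igtp held both patterns, 45 bases (GAS-like) and 34 bases (ISRE-like) before its start. In Cxcl10 the match began 213 bases before the start, in Gbp2 59 bases before it, and the GAS-like match of Irf1 began 90 bases before it. These letters were not in the windows of Ifi47 or Cxcl9. A match describes the sequence and is not a measured binding site.

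Values are log2 signals as deposited. The median of each array lay between 4.25 and 4.35, and a group mean below 4.25 is treated as not shown above background. Across the tested genes the median change over the control was 0.18 for 1,5-naphthalenediamine, 0.11 for 2,3-benzofuran, 0.15 for both N-(1-naphthyl)ethylenediamine and pentachloronitrobenzene, and 0.04 for corn oil over feed. Log2 changes below are therefore given relative to that median, with their standard error (SE), while calls rest on the deposited scale with limma's moderated test at an adjusted p under 0.05, Benjamini-Hochberg over all genes. RNA was from whole liver, so fewer cells of a type and less RNA per cell cannot be told apart. Hepatocyte markers averaged a log2 signal between 13.43 and 13.70 on every array, far above the array medians. The 18S ribosomal RNA signal was 7.93 or more on 5 arrays, against at most 6.97 on the others: 1 of 1,5-naphthalenediamine, 2 of 2,3-benzofuran and 2 of N-(1-naphthyl)ethylenediamine. The RNA integrity number was 7.7, 8.1 and 7.7 in the N-(1-naphthyl)ethylenediamine livers, and 8.8, 8.8 and 9.1 in the feed control livers. The lowest of all arrays, 7.4, was that of corn oil control animal 24.

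**Figure D1:**
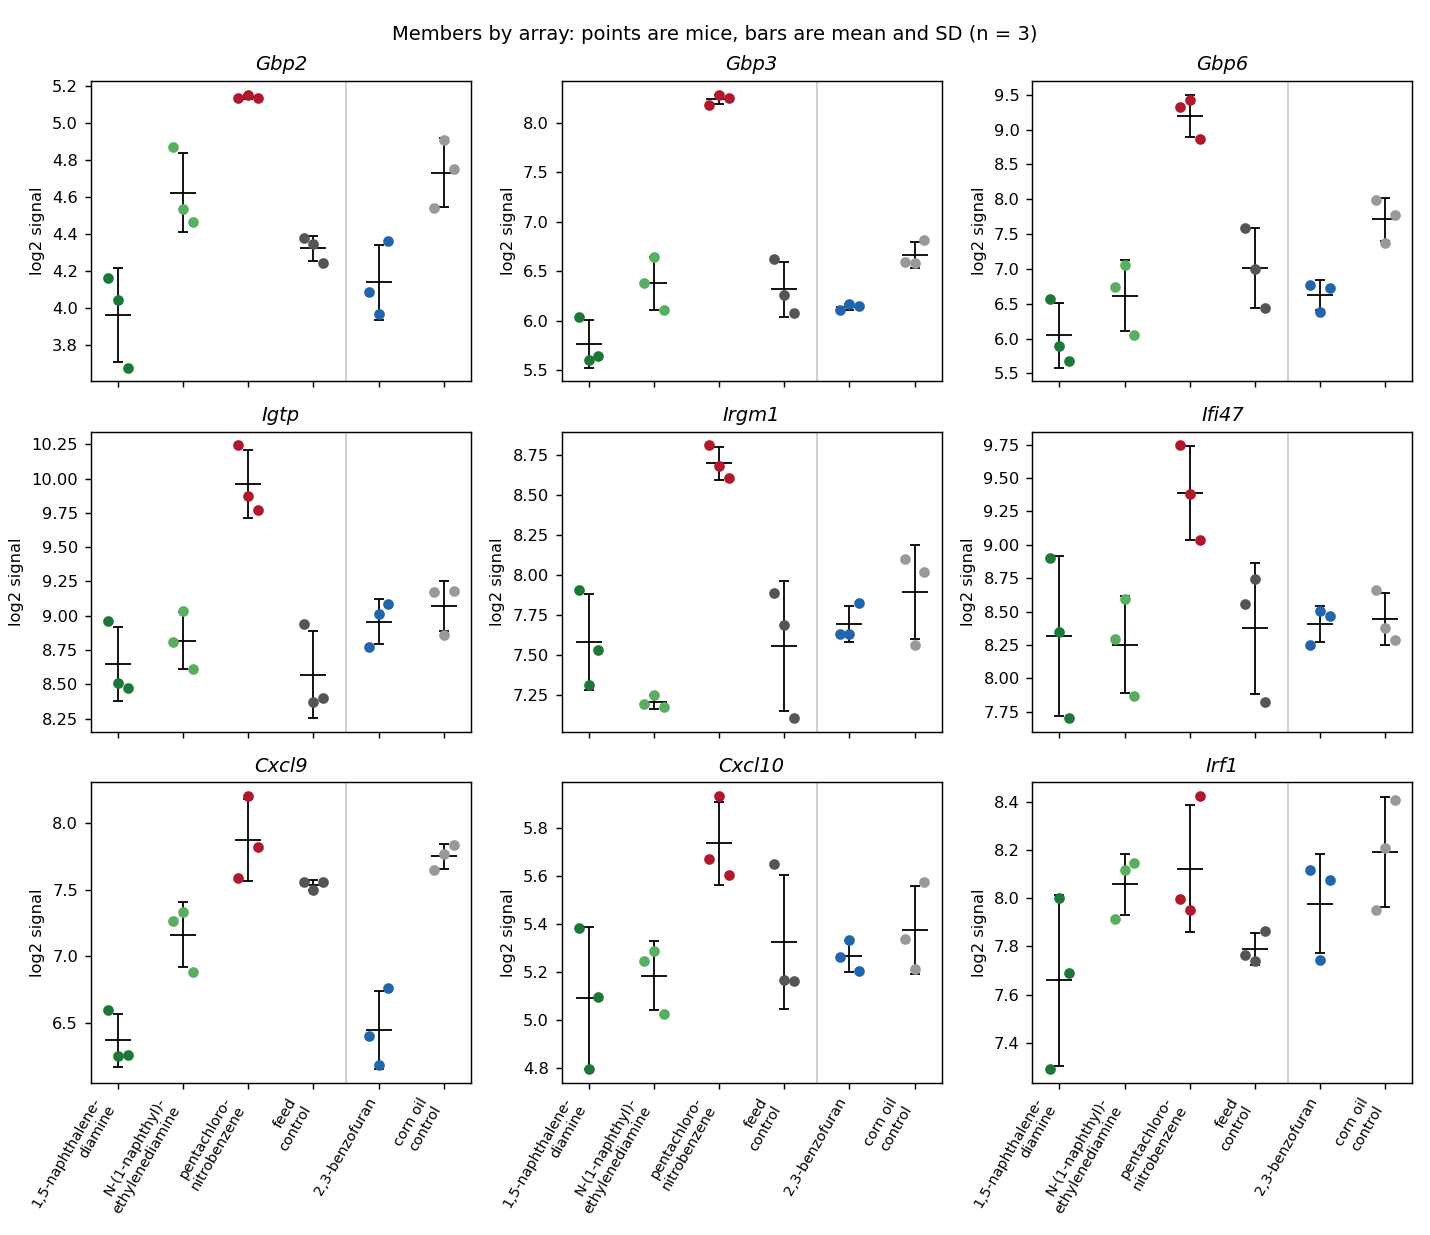
Log2 signal (vertical axes) of the 9 members in each mouse (points) by group, with mean and SD (black bars, n = 3); groups right of the grey line were dosed by gavage. The 3 pentachloronitrobenzene livers lie above all other arrays for the 6 GTPases, and Cxcl9 is lowest in the 1,5-naphthalenediamine and 2,3-benzofuran livers.

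Pentachloronitrobenzene, an organochlorine fungicide, raised all 6 GTPases over the feed control, and 6 of the 9 members in all, where 14.6% of all genes were called higher. Their relative log2 changes ran between 0.67 for Gbp2 and 2.04 for Gbp6. The chemokines and Irf1 did not pass the test, and no member was called lower, where 3.87% of all genes were. The median of the 9 members was 0.87.

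Gbp6, a guanylate-binding protein, had log2 signals of 9.32, 9.42 and 8.86 in pentachloronitrobenzene livers, against 7.59, 7.00 and 6.44 in feed control livers. The groups did not overlap, and the lowest treated liver was also above the highest corn oil control, at 7.98. The change was 2.04 ± 0.29 (SE), or 4.12-fold, with adjusted p = 0.000144 by limma. Mouse guanylate-binding proteins resemble each other in sequence, so that a probe set may also read relatives of its gene, which was not tested. A second probe set of Gbp6 also separated the groups, with a mean of 8.77 ± 0.48 in pentachloronitrobenzene livers and 6.91 ± 0.42 in feed control livers (SD, n = 3 each).

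Gbp3, of the same family, read 8.18, 8.28 and 8.25 in pentachloronitrobenzene livers, against 6.62, 6.26 and 6.08 in feed control livers. Its treated values lay close together and far above all 15 other arrays, of which the highest was a corn oil control at 6.82. Gbp3 had the smallest adjusted p of the members in this comparison, 9.33e-07 by limma, with a change of 1.77 ± 0.15 (SE), or 3.41-fold. Gbp2, another member of that family, lay nearer to background, with 5.14, 5.15 and 5.14 in pentachloronitrobenzene livers, against 4.38, 4.35 and 4.24 in feed control livers. It was above the array median on 12 of 18 arrays, and its change was 0.67 ± 0.14 (SE), with adjusted p = 0.00191 by limma. Its second probe set averaged 4.98 ± 0.08 in pentachloronitrobenzene livers and 4.22 ± 0.23 in feed control livers (SD, n = 3 each), again without overlap, although that feed control mean is below the background limit.

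Among the immunity-related GTPases, Igtp had 10.24, 9.87 and 9.77 in pentachloronitrobenzene livers, against 8.94, 8.37 and 8.40 in feed control livers. It encodes a regulatory member of the family, also called Irgm3, and changed by 1.24 ± 0.17 (SE), or 2.37-fold, with adjusted p = 9.55e-05 by limma. Irgm1, another regulatory member, read 8.81, 8.68 and 8.61 in pentachloronitrobenzene livers, against 7.88, 7.69 and 7.10 in feed control livers. All 3 treated livers were above every control liver, and the change was 0.99 ± 0.18 (SE), with adjusted p = 0.000892 by limma. Ifi47 read 9.75, 9.38 and 9.04 in pentachloronitrobenzene livers, against 8.56, 8.74 and 7.82 in feed control livers. Its change, 0.87 ± 0.27 (SE) with adjusted p = 0.0191 by limma, was the least firm of the 6: the adjusted p was 0.0899 without treated animal 16, 0.0526 without treated animal 18 and 0.114 without feed control animal 29. The other 5 GTPases kept their call when any 1 of the 18 arrays was left out.

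Cxcl9 had log2 signals of 7.59, 8.20 and 7.82 in pentachloronitrobenzene livers, against 7.56, 7.49 and 7.56 in feed control livers. The groups only just failed to overlap, and the change of 0.19 (95% interval -0.16 to 0.53, limma) did not pass, with adjusted p = 0.146. Cxcl10 read 5.67, 5.93 and 5.60 in pentachloronitrobenzene livers, against 5.65, 5.17 and 5.16 in feed control livers, and these groups overlapped. Its change was 0.26 (95% interval -0.07 to 0.59) with adjusted p = 0.0714 by limma, and it passed when feed control animal 27 was left out, with adjusted p = 0.021. Irf1 changed by 0.19 (95% interval -0.17 to 0.54), with adjusted p = 0.152 by limma.

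**Figure D2:**
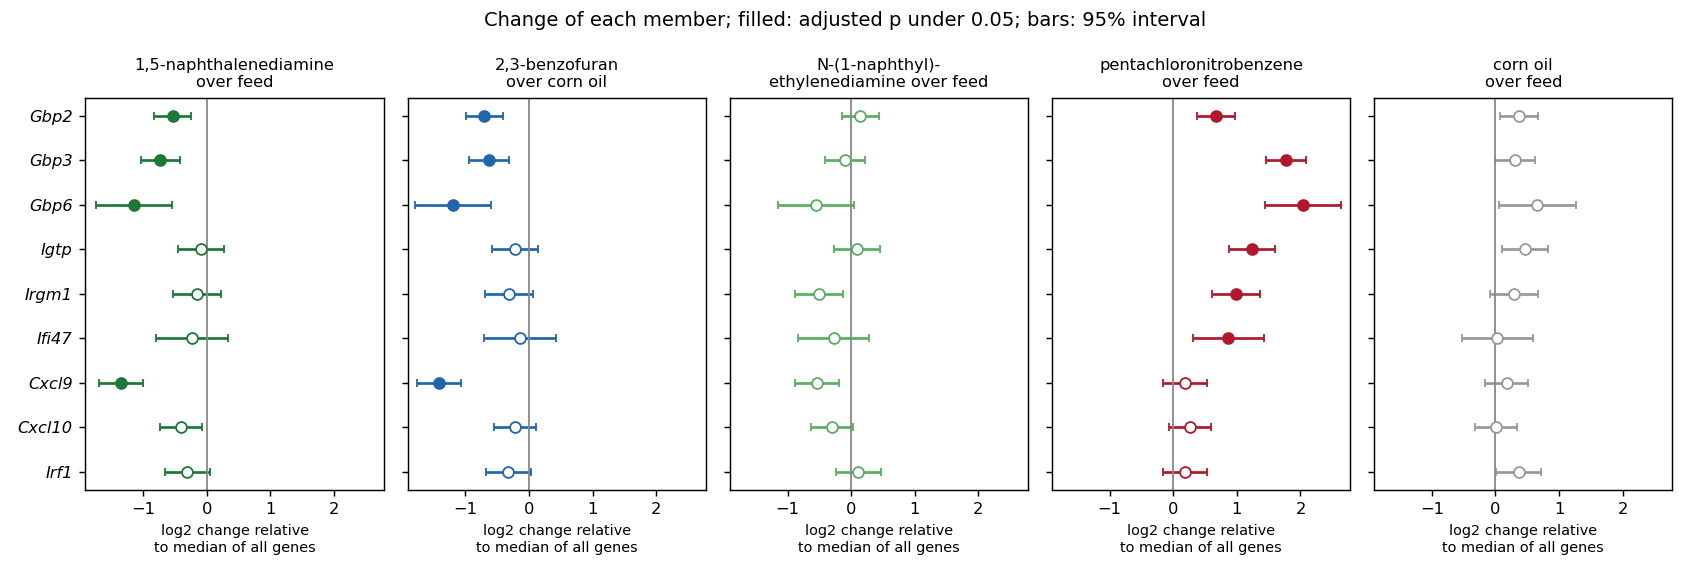
Log2 change of each member over the all-gene median (horizontal axes), for each chemical against its control and for corn oil over feed; bars are 95% intervals without adjustment for many genes, and filled points have an adjusted p under 0.05 on the deposited scale. Filled points lie right of 0 for the 6 GTPases under pentachloronitrobenzene, and left of 0 for Gbp2, Gbp3, Gbp6 and Cxcl9 under 1,5-naphthalenediamine and 2,3-benzofuran.

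1,5-Naphthalenediamine, an aromatic diamine, lowered 4 of the 9 members relative to the feed control: Cxcl9, Gbp6, Gbp3 and Gbp2. In this comparison 8.41% of all genes were called lower and 31.5% higher, and no member was called higher. The median of the 9 members was -0.41.

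Cxcl9, the CXCR3 ligand, read 6.60, 6.25 and 6.26 in 1,5-naphthalenediamine livers, against 7.56, 7.49 and 7.56 in feed control livers. The groups lay far apart beside the spread within each, and Cxcl9 fell by 1.34 on the log2 scale (SE 0.16), or 2.54-fold, with adjusted p = 9.22e-05 by limma. Without the array of high 18S signal in this group and the other 4 such arrays the change was -1.26, with adjusted p = 0.00143. A second, dim probe set of Cxcl9 averaged 4.30 ± 0.24 in 1,5-naphthalenediamine livers and 4.63 ± 0.10 in feed control livers (SD, n = 3 each), and there the groups overlapped. With the mean of both probe sets the change of Cxcl9 was -0.89, with adjusted p = 7.76e-05 by limma.

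Gbp3 read 6.04, 5.61 and 5.65 in 1,5-naphthalenediamine livers, against the feed values above, so that the highest treated liver lay just under the lowest control. It changed by -0.73 ± 0.15 (SE), with adjusted p = 0.00824 by limma. Gbp6 read 6.56, 5.90 and 5.67 in 1,5-naphthalenediamine livers and overlapped the feed controls, with a change of -1.14 ± 0.29 (SE) and adjusted p = 0.0138 by limma. Gbp2 read 4.16, 4.05 and 3.68 in 1,5-naphthalenediamine livers, a mean below the background limit, so that the full size of its fall was not resolved. The measured change was -0.54 ± 0.14 (SE), with adjusted p = 0.0479 by limma. The second probe set of Gbp2 averaged 4.05 ± 0.14 in 1,5-naphthalenediamine livers and 4.22 ± 0.23 in feed control livers (SD, n = 3 each). There the groups overlapped, and both means were below the background limit. These 3 calls were less firm than that of Cxcl9. Without the 5 arrays of high 18S signal, which leaves 2 of the treated livers, the adjusted p by limma was 0.0537 for Gbp3, 0.0591 for Gbp6 and 0.0654 for Gbp2, with changes about as large (-0.63, -1.05 and -0.56). The call of Gbp6 was also lost without feed control animal 27 (0.0745) or treated animals 4 (0.0502) or 5 (0.0621), and that of Gbp2 in 11 of the 18 fits that left out 1 array. Gbp2 changed by -0.30 under quantile normalization, with adjusted p = 0.144 by limma.

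The immunity-related GTPases did not pass in 1,5-naphthalenediamine livers. Igtp changed by -0.10 (95% interval -0.46 to 0.27), Irgm1 by -0.15 (-0.53 to 0.22) and Ifi47 by -0.23 (-0.79 to 0.33), with adjusted p by limma of 0.733, 0.925 and 0.881. On the deposited scale Igtp and Irgm1 were higher by 0.08 and 0.02, so the sign of these 2 small values depends on the scale. Cxcl10 changed by -0.41 (-0.74 to -0.08) and Irf1 by -0.30 (-0.66 to 0.05), and neither passed, with adjusted p by limma of 0.236 and 0.551. Cxcl10 did pass once each array was centred on its median, with adjusted p = 0.0262.

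2,3-Benzofuran, an oxygen heterocycle, lowered 4 of the 9 members relative to the corn oil control: Cxcl9, Gbp6, Gbp3 and Gbp2. In this comparison 7.58% of all genes were called lower and 24.8% higher, and no member was called higher. Cxcl9 read 6.40, 6.18 and 6.76 in 2,3-benzofuran livers, against 7.65, 7.77 and 7.83 in corn oil control livers. It fell by 1.41 on the log2 scale (SE 0.16), or 2.66-fold, with adjusted p = 2.62e-05 by limma, and was still called, at -1.09 and adjusted p = 0.016, without the 5 arrays of high 18S signal. That fit left a single 2,3-benzofuran liver, whose spread was taken from the other groups. The second, dim probe set averaged 4.30 ± 0.20 in 2,3-benzofuran livers and 4.53 ± 0.04 in corn oil control livers (SD, n = 3 each), with overlap, and with the mean of both probe sets Cxcl9 changed by -0.85, with adjusted p = 5.4e-05 by limma.

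Gbp6 read 6.76, 6.38 and 6.72 in 2,3-benzofuran livers, against 7.98, 7.37 and 7.77 in corn oil control livers, without overlap. Its change was -1.20 ± 0.29 (SE), with adjusted p = 0.00838 by limma. Gbp3 read 6.11, 6.17 and 6.15 in 2,3-benzofuran livers, against 6.60, 6.58 and 6.82 in corn oil control livers. The values were tight and separate, and the change was -0.63 ± 0.15 (SE), with adjusted p = 0.0138 by limma. Gbp2 read 4.09, 3.97 and 4.36 in 2,3-benzofuran livers, a mean below the background limit, against 4.54, 4.91 and 4.75 in corn oil control livers. Its measured change was -0.70 ± 0.14 (SE), with adjusted p = 0.00421 by limma. Without the 5 arrays of high 18S signal none of these 3 passed, with adjusted p by limma of 0.137 for Gbp6, 0.134 for Gbp3 and 0.219 for Gbp2 and changes of -1.09, -0.62 and -0.48. Gbp3 was also lost with both control groups pooled (adjusted p = 0.0571) and without corn oil control animal 25 (0.0615).

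The remaining 5 members did not pass in 2,3-benzofuran livers, with changes between -0.14 for Ifi47 and -0.32 for Irf1. The median of the 9 was -0.32. The 2,3-benzofuran effect minus the 1,5-naphthalenediamine effect was called for 0 of the 9 members, where 0.961% of all genes were called in either direction, and 0 had an unadjusted p under 0.05 by limma. The differences ran between -0.21 for Gbp2 and 0.15 for Cxcl10. For Gbp6 the 95% interval of the difference was -0.95 to 0.75, so that a sizeable difference in either direction was not shown to be absent.

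Some markers of Kupffer cells and macrophages were also lower with 1,5-naphthalenediamine and 2,3-benzofuran. Of the 16 markers, all tested, 3 were called lower in 1,5-naphthalenediamine livers (Folr2, Vsig4 and Csf1r) and 5 in 2,3-benzofuran livers (Mpeg1, Csf1r, Clec4f, Folr2 and Vsig4), with list medians of -0.53 and -0.57, where 8.41% and 7.58% of all genes were lower. In pentachloronitrobenzene livers 1 was higher, Mpeg1 at 0.52, with a list median of 0.09, a smaller share than the 14.6% of all genes. In N-(1-naphthyl)ethylenediamine livers 0 of the 16 were called, with a list median of -0.05, where 24.7% of all genes were higher and 4.37% lower. For corn oil over feed 0 were called, where 0.123% of all genes were, and the list median was 0.27. The mean log2 signal of the 16 ranged over 6.73 to 7.29 in 1,5-naphthalenediamine livers, 7.27 to 7.73 in pentachloronitrobenzene livers and 6.96 to 7.49 in feed control livers. It ranged over 6.88 to 7.28 in 2,3-benzofuran livers and 7.31 to 7.65 in corn oil control livers. Of 18 T and NK cell markers 7 were tested: Cd4 and Ccl5 were lower in 1,5-naphthalenediamine livers, Gzma was lower in 2,3-benzofuran livers, and 0 were called in pentachloronitrobenzene livers (1 at an unadjusted p under 0.05). Their mean ranged over 4.73 to 4.76 in 1,5-naphthalenediamine livers, 4.93 to 5.06 in pentachloronitrobenzene livers and 4.91 to 4.98 in feed control livers. It ranged over 4.70 to 4.88 in 2,3-benzofuran livers and 4.90 to 4.98 in corn oil control livers. Cd3e, Cd4 and Cd8a were among the markers tested, whereas Cd3d, Cd3g, Cd8b1 and Ncr1 did not pass the filter on dim values. The part of these cells in the members' changes was not tested.

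N-(1-Naphthyl)ethylenediamine gave no call among the 9 members, where 24.7% of all genes were called higher and 4.37% lower than in feed controls. Of the 9, 2 had an unadjusted p under 0.05 by limma, Cxcl9 as a fall and Gbp2 as a rise. The changes of the 9 ran between -0.55 for Gbp6 and 0.15 for Gbp2. Cxcl9 read 7.27, 7.33 and 6.88 in N-(1-naphthyl)ethylenediamine livers, all below the feed controls. Its change was -0.53 ± 0.16 (SE), with adjusted p = 0.0911 by limma. Irgm1 read 7.19, 7.25 and 7.17, close together and overlapping the feed controls through control animal 29. Its change was -0.51 ± 0.18 (SE), with adjusted p = 0.142 by limma. Both were called lower once each array was centred (Cxcl9 0.0218, Irgm1 0.0264), under quantile normalization and with pooled controls.

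Corn oil gavage itself gave no call among the members relative to feed (0.123% of all genes were called), although 5 of the 9 had an unadjusted p under 0.05 by limma. All 9 changes were above 0, up to 0.66 for Gbp6 (95% interval 0.06 to 1.26). The 2,3-benzofuran changes are measured from the corn oil levels.

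The 2 naphthalene amines were given at the same dose, route and time, and were compared directly. 1,5-Naphthalenediamine carries an amino group on each ring of naphthalene, whereas N-(1-naphthyl)ethylenediamine carries an aminoethylamino chain on one ring. Cxcl9, Gbp2 and Gbp3 were lower in 1,5-naphthalenediamine livers, where 1.96% of all genes were called lower. Cxcl9 differed by -0.79 ± 0.16 (SE), Gbp2 by -0.66 ± 0.14 and Gbp3 by -0.61 ± 0.15, with adjusted p by limma of 0.00771, 0.00893 and 0.0217. With the RNA integrity number as a covariate 0 of the 9 passed, and the changes were -0.78 for Cxcl9, -0.56 for Gbp2 and -0.70 for Gbp3. Without the 5 arrays of high 18S signal 0 passed and the changes were -0.44, -0.54 and -0.26. Leaving out 1,5-naphthalenediamine animal 5 ended the call of Gbp2, and leaving out that animal, animal 4, or N-(1-naphthyl)ethylenediamine animals 12 or 14 ended that of Gbp3.

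Gbp6 differed between the amines by -0.57 (95% interval -1.17 to 0.03), Igtp by -0.17 (-0.53 to 0.20), Ifi47 by 0.07 (-0.50 to 0.63) and Cxcl10 by -0.09 (-0.42 to 0.24), and none passed. Irgm1 was the exception in sign, at 0.38 (0.004 to 0.76), with adjusted p = 0.242 by limma. Irf1 differed by -0.40 (-0.75 to -0.04), with adjusted p = 0.18 by limma.

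Across the study's classes, the mean effect of the 2 positive chemicals minus that of the 2 negative ones was called below 0 for 5 of the 9 members, where 3.39% of all genes were. The difference was -1.92 ± 0.25 (SE) for Gbp6, -1.52 ± 0.13 for Gbp3, -1.21 ± 0.14 for Cxcl9, -1.04 ± 0.12 for Gbp2 and -0.84 ± 0.15 for Igtp, with adjusted p by limma between 6.1e-07 for Gbp3 and 0.00182 for Igtp. Irgm1 (-0.48) and Irf1 (-0.47) did not pass, with adjusted p of 0.0683 and 0.0553, and were called in 2 and 4 of the alternatives. Ifi47 and Cxcl10 did not pass either, with adjusted p of 0.231 and 0.2. The 2 negative chemicals were not alike in these genes, and the class difference averages them.

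A further 3 comparisons were added after the members' values were seen, so they describe the same pattern from another side. Pentachloronitrobenzene livers were higher than N-(1-naphthyl)ethylenediamine livers in 6 of the 9 members (1.63% of all genes), by 2.62 ± 0.29 (SE) for Gbp6, 1.89 ± 0.15 for Gbp3, 1.53 ± 0.18 for Irgm1, 1.17 ± 0.17 for Igtp, 1.17 ± 0.27 for Ifi47 and 0.74 ± 0.16 for Cxcl9. Gbp2 (0.55, adjusted p = 0.0565 by limma) and Cxcl10 (0.58, adjusted p = 0.0677) came near the threshold and Irf1 (0.10) did not. The calls of Ifi47 and Cxcl9 ended without animal 12 or 15 of N-(1-naphthyl)ethylenediamine and without animal 18 of pentachloronitrobenzene, and Ifi47 also without animal 16 and Cxcl9 also without animal 20 of pentachloronitrobenzene. Both also did not pass with the RNA integrity number as a covariate (Ifi47 1.04, Cxcl9 0.75), although the changes were about as large. Cxcl9 did not pass with only the groups compared either (adjusted p = 0.0603 by limma). Without the 5 arrays of high 18S signal the changes were 1.54 for Ifi47 and 1.01 for Cxcl9. That fit keeps a single N-(1-naphthyl)ethylenediamine liver, animal 15. This animal was the lowest of its group for 8 of the 9 members, Ifi47 and Cxcl9 included. Pentachloronitrobenzene livers were called higher than 1,5-naphthalenediamine livers in 8 of the 9 members (1.82% of all genes), with 3.18 for Gbp6 and 1.53 for Cxcl9. Irf1 was higher by 0.49 but did not pass (adjusted p = 0.149 by limma). Of the 8 called, Ifi47 and Cxcl10 did not pass without animals 16 or 18 of pentachloronitrobenzene or animals 4 or 5 of 1,5-naphthalenediamine. Nor did these 2 pass without the 5 arrays of high 18S signal (adjusted p by limma of 0.164 and 0.263). With only the groups compared their adjusted p was 0.0936 and 0.0766. The pentachloronitrobenzene effect minus the 2,3-benzofuran effect was called above 0 for 6 of the 9 (1.63% of all genes). These were Gbp2, Gbp3, Gbp6, Igtp, Irgm1 and Cxcl9. The differences of Ifi47 (1.05), Irf1 (0.55) and Cxcl10 (0.52) were above 0 too but did not pass. Without the 5 arrays of high 18S signal, Igtp (1.37, adjusted p = 0.0735 by limma) and Irgm1 (1.20, adjusted p = 0.16) did not pass. The doses of these chemicals differed.

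**Figure D3:**
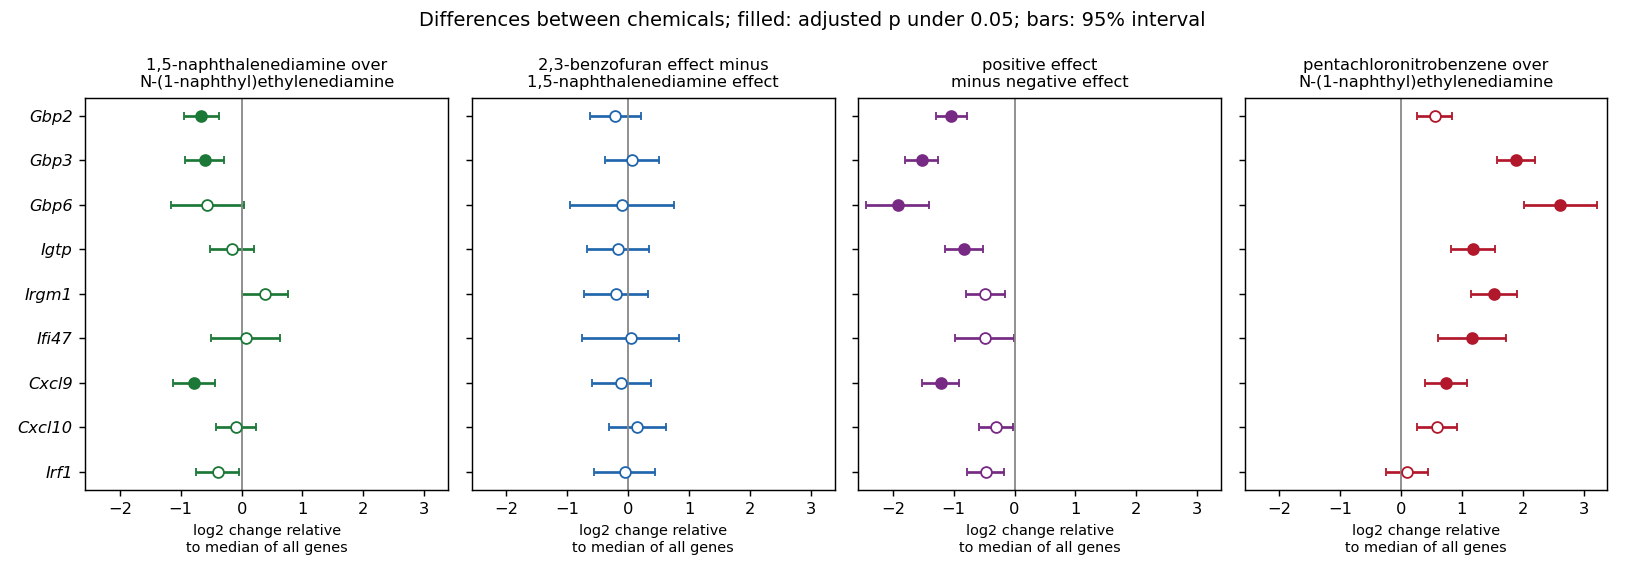
Log2 difference between chemicals, relative to the median of all tested genes (horizontal axes), for each member; bars are unadjusted 95% intervals and filled points have an adjusted p under 0.05. The difference between the effects of the positive chemicals has no filled point, whereas pentachloronitrobenzene over N-(1-naphthyl)ethylenediamine has 6.

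In order of level, pentachloronitrobenzene livers had the highest mean for 8 of the 9 members, and for Irf1 the corn oil controls did. For the 6 GTPases and Cxcl10 the pentachloronitrobenzene range did not overlap the next group, the corn oil controls, although for Cxcl10 it overlapped feed control animal 27. For Gbp6, Igtp, Irgm1, Ifi47 and Cxcl10 all other neighbours in the order overlapped, although groups further apart could be separate: for Gbp6, 2,3-benzofuran (at most 6.76) lay below the corn oil controls (at least 7.37), and for Irgm1, N-(1-naphthyl)ethylenediamine (at most 7.25) lay below the corn oil controls (at least 7.56). Gbp2 had 1 further gap, between N-(1-naphthyl)ethylenediamine (4.62 ± 0.21) and the feed controls (4.32 ± 0.07), and Gbp3 had 1, between 2,3-benzofuran (6.15 ± 0.03) and 1,5-naphthalenediamine (5.77 ± 0.24), each as mean ± SD with n = 3. Cxcl9 was resolved most finely: the corn oil controls (7.75 ± 0.10), feed controls (7.54 ± 0.04), N-(1-naphthyl)ethylenediamine (7.16 ± 0.24) and 2,3-benzofuran (6.45 ± 0.29) each lay below the one before without overlap, while 2,3-benzofuran overlapped 1,5-naphthalenediamine (6.37 ± 0.20) and pentachloronitrobenzene (7.87 ± 0.31) overlapped the corn oil controls (SD, n = 3 each). Irf1 overlapped between all neighbours.

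Other interferon-inducible GTPases were taken from a list of 16, of which 6 were tested. In pentachloronitrobenzene livers 5 of 6 were called higher, where 14.6% of all genes were, with a list median of 0.53. The 5 were Irgm2 at 1.16, Gbp7 at 1.12, Gbp2b at 0.54, Iigp1 at 0.52 and Mx2 at 0.30. Irgm2, the third regulatory immunity-related GTPase, averaged 8.67 ± 0.18 in pentachloronitrobenzene livers and 7.36 ± 0.35 in feed control livers (SD, n = 3 each). Gbp7 averaged 8.32 ± 0.17 in pentachloronitrobenzene livers and 7.05 ± 0.15 in feed control livers (SD, n = 3 each). In 2,3-benzofuran livers 3 of 6 were called lower, where 7.58% of all genes were: Gbp7 at -0.79, Iigp1 at -0.67 and Gbp2b at -0.61. In 1,5-naphthalenediamine livers 0 of 6 passed (1 at an unadjusted p under 0.05 by limma), with a list median of -0.40. Of all genes, 8.41% were called lower there and 31.5% higher. In N-(1-naphthyl)ethylenediamine livers 1 of 6 was higher, Gbp2b at 0.37, a smaller share than the 24.7% of all genes.

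Of a list of 24 interferon gamma signalling genes 13 were tested. The list also holds Irf9, which belongs to the type I interferon complex named above. In pentachloronitrobenzene livers, where 14.6% of all genes were called higher, 3 were called higher and 0 lower: Irf9 at 0.63, the class I antigen presentation regulator Nlrc5 at 0.49 and the kinase Jak2 at 0.23. Irf9 averaged 7.81 ± 0.15 in pentachloronitrobenzene livers and 7.03 ± 0.15 in feed control livers (SD, n = 3 each). In 1,5-naphthalenediamine livers Irf9 was lower, at -0.69, and the phosphatase Ptpn2 was called higher at only 0.09, where 8.41% of all genes were lower and 31.5% higher. In 2,3-benzofuran livers 4 were lower, against 7.58% of all genes: the feedback inhibitor Socs3 at -1.53, Irf2 at -0.70, Il18 at -0.69 and the receptor subunit Ifngr1 at -0.50. In N-(1-naphthyl)ethylenediamine livers 4 were higher, Nlrc5 at 0.83, Irf2 at 0.37, Il18 at 0.31 and Ptpn2 at 0.22, where 24.7% of all genes were called higher. Ifng itself was below the array median on 18 of 18 arrays, at 2.94 to 3.45, so its level could not be followed.

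Of 24 other chemokines 16 were tested. Cxcl11, the remaining CXCR3 ligand, was called higher in pentachloronitrobenzene livers at 0.50 and in N-(1-naphthyl)ethylenediamine livers at 0.23, and changed by 0.07 in 1,5-naphthalenediamine livers and -0.15 in 2,3-benzofuran livers, where it did not pass. The B cell attractant Cxcl13 was lower in 1,5-naphthalenediamine (-0.78), N-(1-naphthyl)ethylenediamine (-0.69) and pentachloronitrobenzene livers (-0.66), 3 comparisons that share the feed controls. In 1,5-naphthalenediamine livers 2 of the 16 were called higher and 5 lower, where 31.5% and 8.41% of all genes were. In 2,3-benzofuran livers 1 was higher and 2 lower (24.8% and 7.58% of all genes). In N-(1-naphthyl)ethylenediamine livers 4 were higher and 2 lower (24.7% and 4.37%), the higher calls at about the share of all genes. In pentachloronitrobenzene livers 2 were higher and 2 lower (14.6% and 3.87%).

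**Figure D4:**
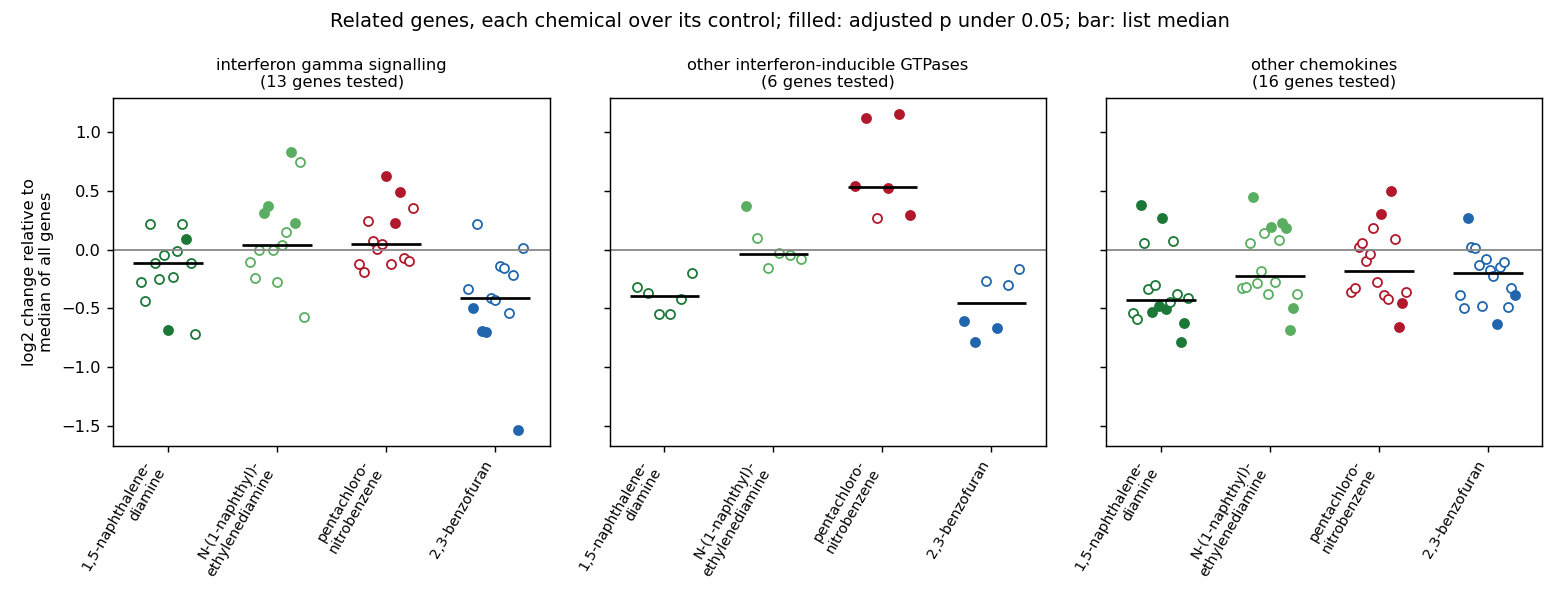
Log2 change relative to the median of all tested genes (vertical axis) for each tested gene of the 3 related lists, for each chemical over its control; filled points have an adjusted p under 0.05 and black bars are list medians. For the other interferon-inducible GTPases the pentachloronitrobenzene median is 0.53 and the 2,3-benzofuran median is -0.46.

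The genes most like the members were sought among all tested genes, by Pearson's r over the 18 arrays with the mean of the 9 standardized members, after subtraction of each array's median. The 8 highest were Ifi27 (r = 0.958, Spearman 0.913), Rtp4 (0.952, 0.926), Xaf1 (0.951, 0.932), Gbp7 (0.948, 0.934), Trim30a (0.940, 0.942), Irgm2 (0.939, 0.874), Ifit3 (0.934, 0.891) and Bst2 (0.931, 0.907). Over the 15 arrays without pentachloronitrobenzene their r ran between 0.837 for Ifit3 and 0.940 for Rtp4. The arrays share the groups of the design, so these values are a description.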

How the data were processed

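Liver RNA of 18 mice was hybridised, biotin-labelled, to Affymetrix Mouse 430_2 arrays, 1 per mouse, per the labels. The authors deposited 1 log2 signal per probe set and array; how scans were corrected, normalized and summarised is not given in the sources used here; the log2 scale was inferred from the values, which run between 2.21 and 14.66. Precision is limited by having 3 arrays a group. The members and all gene lists were chosen with earlier results of these data known.

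Of 45101 probe sets, 34945 had 1 annotated gene, 932 had several and 9160 had none; 64 control probe sets were left out. Symbols were updated through Entrez identifiers. Probe sets above the array median on at least 3 arrays were kept, and each gene took its probe set of highest mean, leaving 12169 genes. limma 3.58.1 in R 4.3.3 fitted a mean per group over all 18 arrays (eBayes with a mean-variance trend, Benjamini-Hochberg adjusted p under 0.05), and was tested on simulated data. All members were named; of each pathway list, up to 4 genes with the largest absolute t per comparison, and Ifng and Cxcl11. One item named by this rule is not reported here. Alternatives were quantile normalization, median centring, other filters, probe set rules, moderation, samples, covariates and controls, and leaving out each array. Figures used matplotlib 3.10.9.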

Additional observations from a re-analysis of the deposited data

Results flagged for a closer look

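Effects of the positive minus the negative chemicals differed by limma's test of the difference itself for Gbp6 (-1.92), Gbp3 (-1.52), Cxcl9 (-1.21), Gbp2 (-1.04) and Igtp (-0.836), as log2 differences. The test measures the spread between mice, not between chemicals, of which each class had 2. Igtp changed by -0.10 with 1,5-naphthalenediamine, -0.22 with 2,3-benzofuran, 0.09 with N-(1-naphthyl)ethylenediamine and 1.24 with pentachloronitrobenzene, and only the last was called. Igtp did not pass without the 5 arrays of high 18S signal.

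Among the members' probe sets that stood for no gene, those of Gbp6 and Gbp2 carried a signal above the feed controls in pentachloronitrobenzene livers. That of Cxcl9 did not, with differences from the controls between -0.34 for 1,5-naphthalenediamine and -0.03 for pentachloronitrobenzene. The second probe set of Gbp6 was higher by 1.87 in pentachloronitrobenzene livers than in feed control livers, and that of Gbp2 by 0.77, both on the deposited log2 scale and without overlap. The feed control mean of that Gbp2 probe set, 4.22, is below the background limit of 4.25, so its differences are not exact. The second probe set of Gbp2 was also higher by 0.333 in N-(1-naphthyl)ethylenediamine livers than in feed control livers, as was the probe set that stood for Gbp2, by 0.30, which did not pass (adjusted p = 0.11 by limma).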

How the results depend on the processing

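The 6 members higher in pentachloronitrobenzene livers numbered 5 or 6 under the alternatives and 5 to 7 when 1 array was left out. The 4 lower in 1,5-naphthalenediamine livers numbered 1 without the 5 arrays of high 18S signal, 5 after centring, and 2 to 4 when 1 array was left out (2 without feed control animal 27 or treated animals 4 or 5). Gbp2 was also not called there under quantile normalization (adjusted p = 0.144 by limma), with no filter on dim probe sets (0.0564), with the mean of its probe sets (0.0897) and with only the groups compared (0.0789). The 4 lower in 2,3-benzofuran livers numbered 1 without those 5 arrays and 3 to 4 when 1 array was left out. For N-(1-naphthyl)ethylenediamine, 2 members were lower under quantile normalization, after centring and with pooled controls, and 0 to 1 when 1 array was left out (1 without feed control animal 29). The 3 members lower in 1,5-naphthalenediamine than in N-(1-naphthyl)ethylenediamine livers numbered 0 with the RNA integrity number as covariate and 0 without the 5 arrays, and 1 to 3 when 1 array was left out (1 without 1,5-naphthalenediamine animal 5). The class difference counted 4 to 7 members under the alternatives and 5 to 6 when 1 array was left out. Pentachloronitrobenzene over N-(1-naphthyl)ethylenediamine counted 4 to 8 members either way. The cause of these shifts was not tested. Dropping 5 arrays leaves 1 liver each of 2,3-benzofuran and N-(1-naphthyl)ethylenediamine, whose spread is assumed to be that of the other groups. No called member reversed its direction. No paired analysis was possible because the replicate numbers are animal numbers that no 2 groups share. Gbp2 lies close to background, which limits its changes.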

Other observations

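Within groups, single animals stood out across the members. In 1,5-naphthalenediamine livers animal 2 had the highest signal for 8 of the 9 members, all 6 GTPases included. In N-(1-naphthyl)ethylenediamine livers animal 15 had the lowest signal for 8 of the 9, and in feed control livers animal 29 had the lowest for 6 of the 9 and animal 27 the highest for 6.

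Markers of other liver cells were called as well. Of 14 stellate cell markers, Ecm1, Colec11 and Rgs5 were higher in pentachloronitrobenzene livers (0.28, 0.40 and 0.25), where 14.6% of all genes were higher. Ecm1, Colec11, Rgs5 and Reln were lower in 2,3-benzofuran livers (-0.51, -0.51, -0.47 and -0.56), where 7.58% of all genes were lower. Pdgfrb and Col3a1 were lower in N-(1-naphthyl)ethylenediamine livers (-0.58 and -0.87), where 4.37% were. Of 15 sinusoidal endothelial markers, 1 was lower in 1,5-naphthalenediamine livers, the scavenger receptor gene Stab2 (-0.73). That is a smaller share than the 8.41% of all genes called lower there. In 2,3-benzofuran livers 3 of the 15 were lower, where 7.58% of all genes were: Stab2 (-0.69), Ptprb (-0.42) and Fcgr2b (-0.55). Other endothelial markers were called higher. In 1,5-naphthalenediamine livers these were Cdh5 and Dnase1l3 (0.31 and 0.14, with 31.5% of all genes higher). In N-(1-naphthyl)ethylenediamine livers they were Dnase1l3, Kdr and Cdh5 (0.42, 0.34 and 0.33, with 24.7%). In pentachloronitrobenzene livers Dnase1l3 alone was higher (0.21, with 14.6%).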
